A study of Mus musculus with 8 samples.

Results

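The macrophage growth factors and receptors described here were 10 of the 26939 genes in the joined tables. They were chosen by gene name as growth factors of macrophages and their close kin: the ligands Csf1, Il34 and Csf2, and the receptors and receptor chains Csf1r, Csf2ra, Csf2rb, Csf2rb2, Csf3r, Flt3 and Kit. Levels were read in RNA-seq libraries of TAMs (tumor-associated macrophages) sorted by CD45, CD11b and F4/80 and without Gr-1 from EO771 mammary tumors grown in the fat pad of female C57BL/6J mice, 8 to 14 weeks old, and taken at day 21. There were 4 groups of 2 libraries, WT and Unc93b1 3d/3d mice each as control and with αMARCO. The genotype tag of Unc93b1 3d/3d control replicate 2 departs from its title, ending in 4d in place of 3d, and the title was followed. Unc93b1 3d/3d mice carry a missense change in a chaperone of endosomal Toll-like receptors, in every cell, and lack functional TLR3, TLR7 and TLR9 signaling. αMARCO mice received 100 µg of clone ED31, an antibody to the scavenger receptor MARCO, intravenously on days 3, 6, 9 and 12. The titles call the controls untreated and the library names PBS, whereas the protocol names a rat IgG1 isotype, so the injection that control mice received is not settled. Each control library was pooled from 3 mice, and pooling is not given for the αMARCO libraries. All groups bore the same tumor, so no tumor-free macrophages were compared.

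CSF1 and IL-34 are alternative ligands of the receptor tyrosine kinase CSF1R, on which most tissue macrophages depend for survival and proliferation. GM-CSF, encoded by Csf2, signals through a ligand-binding α chain, encoded by Csf2ra, and a signaling β chain shared with the receptors for IL-3 and IL-5. G-CSF acts on CSF3R, mainly in neutrophils and monocytes, while FLT3 supports dendritic cell development and KIT, the stem cell factor receptor, marks mast cells and progenitors.

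The library totals ran from 15182618 to 26411936 counts, so that 3 counts, the least taken as detected, stood for 0.117 to 0.205 CPM (counting error only). CPM are counts relative to each library's total, adjusted by TMM factors. The libraries of Unc93b1 3d/3d αMARCO stood apart from each other, with 1901 of 16620 genes over 2-fold apart in CPM plus 1, against 55 to 173 in the other groups. Unc93b1 itself had 718 to 965 CPM in WT and 539 to 659 CPM in Unc93b1 3d/3d libraries, which does not check the genotype because the allele changes the protein and not the presence of the RNA. Of the sort markers, Adgre1, which encodes F4/80, had 333 to 719 CPM and Itgam, which encodes CD11b, 291 to 732 CPM. The neutrophil gene Ly6g had at most 0.84 CPM. Among other neutrophil markers, Mmp8 reached 36.1 and S100a9 24.4 CPM, while Camp and Ngp had at most 0.13 and 0.28 CPM. The 12 conventional dendritic cell markers summed to 1342 and 919 CPM in WT control and 223 to 425 CPM elsewhere. T cell markers were present at a low level, with a summed 110 and 124 CPM in WT control and 8.97 to 27.7 CPM elsewhere. These are bulk libraries, in which fewer cells of a type and less RNA per cell cannot be told apart.

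In WT TAMs, αMARCO went with lower RNA of the ligand Csf1 and of the receptor Kit. In control TAMs, the β chain Csf2rb2 was lower in WT than in Unc93b1 3d/3d. These were the called differences. A call needed an adjusted p no higher than 0.05 from edgeR's quasi-likelihood test together with a log2 fold change of 0.5 or more in size. Of the 9 members tested, 2 were called for αMARCO in WT, where 20.7% of 15630 tested genes were called, and 1 between the control genotypes, where 13% of 15600 were. No member was called for αMARCO in Unc93b1 3d/3d or between the genotypes under αMARCO, where 0.0% of 15428 and 0.0% of 15722 genes were called. At an unadjusted p of at most 0.05, 744 genes (4.82%) and 1076 genes (6.84%) passed in those comparisons, with 1 of the 9 members in each, and DESeq2 called 53 and 195 genes. At the same unadjusted p, 7 of 9 members passed for αMARCO in WT and 4 of 9 between the control genotypes, beside 45.8% and 33.6% of all tested genes. No member was called higher with αMARCO in WT, where 8.91% of genes were, or higher in WT than in the mutant among control TAMs, where 6.58% were. The median log2 fold change of the 9 members was 0.14 for αMARCO in WT, beside -0.01 over all tested genes. It was 0.25 between the control genotypes, WT over Unc93b1 3d/3d.

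**Figure D1:**
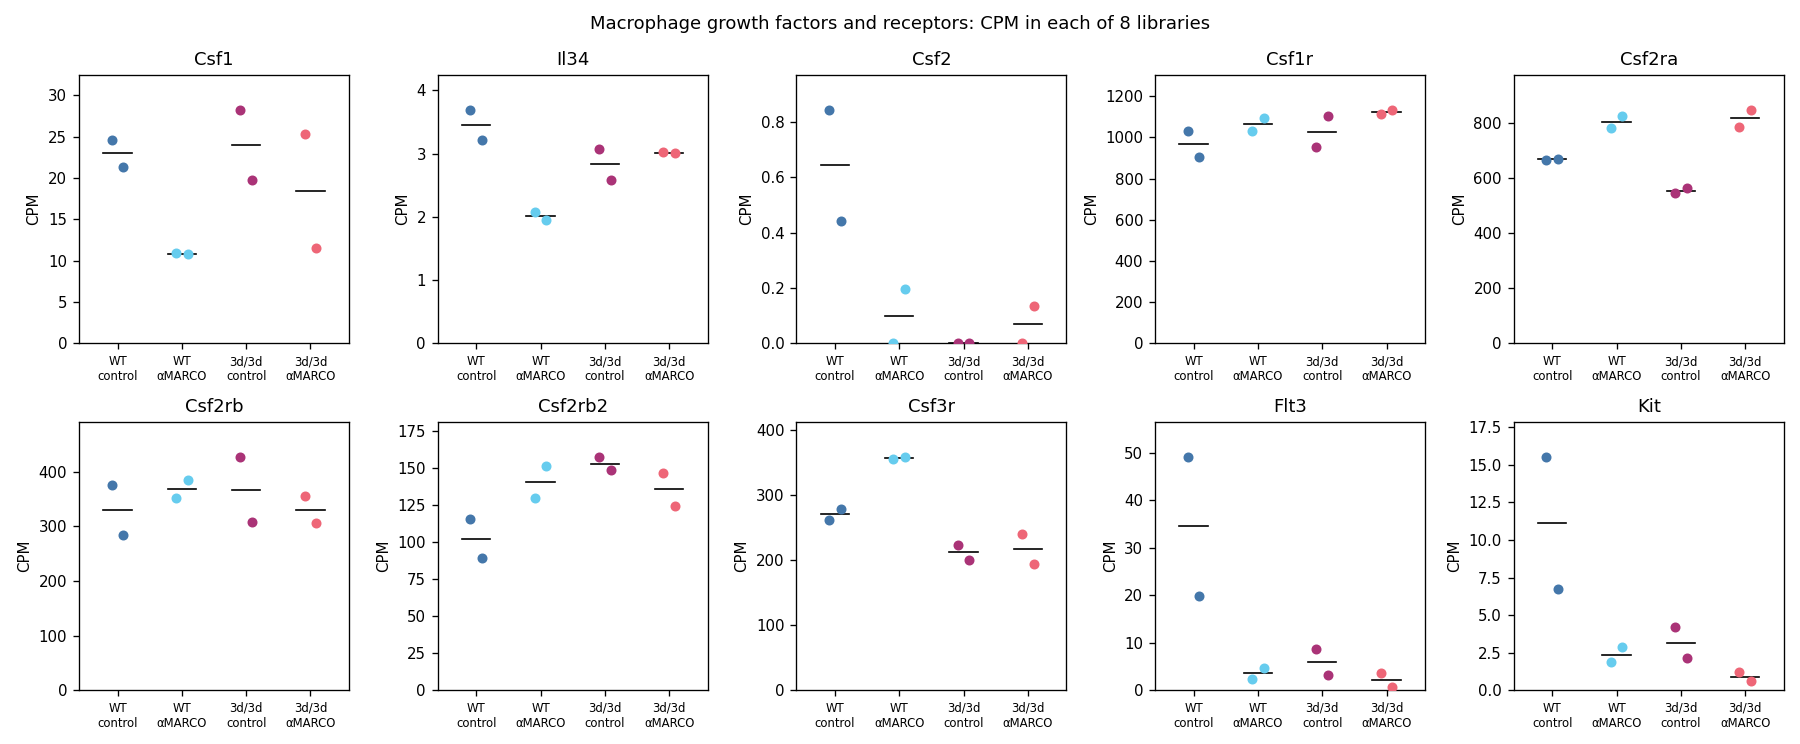
CPM (vertical axes, from 0) of each of the 10 genes in the 8 libraries, with 2 points per group and a bar at the group mean. Csf1 lay at 10.8 and 10.9 CPM in WT αMARCO, below every other library, and Flt3 and Kit were highest in the WT control libraries.

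Csf1 (ENSMUSG00000014599, chr3:107741048-107760469, minus strand, GRCm38) encodes M-CSF, the main growth factor of macrophages. Its level was 24.6 and 21.4 CPM in WT control and 10.9 and 10.8 CPM in WT αMARCO. It was 28.2 and 19.7 CPM in Unc93b1 3d/3d control and 25.3 and 11.6 CPM in Unc93b1 3d/3d αMARCO. The WT groups were clear of each other, while the Unc93b1 3d/3d groups overlapped because the αMARCO libraries there were 2 far-apart values, the higher within the control range. In WT, Csf1 fell with αMARCO by a log2 fold change of -1.08 (SE 0.14, edgeR adjusted p = 0.000518), to 10.9 ± 0.0802 CPM from 23.0 ± 2.25 CPM (SD, n = 2 each). The call was lost when all 8 libraries shared an estimate of the spread (adjusted p = 0.156). In Unc93b1 3d/3d the log2 fold change was -0.36 (SE 0.42, edgeR adjusted p = 0.846). It was -1.04 without αMARCO replicate 1 and 0.11 without αMARCO replicate 2, fits that leave 1 library in that group. The difference between the αMARCO effects in WT and in Unc93b1 3d/3d was -0.73 (SE 0.49, edgeR adjusted p = 0.441). With 1 library left out it ran from -1.20, without Unc93b1 3d/3d αMARCO replicate 2, to -0.03. These fits leave 1 library in a group. Between the control genotypes, Csf1 differed by a log2 fold change of -0.08 (adjusted p = 0.811).

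As a share of the summed Csf1 and Csf1r counts, Csf1 made up 2.33% and 2.31% in WT control and 1.05% and 0.978% in WT αMARCO. In Unc93b1 3d/3d it made up 2.88% and 1.76% in control and 2.22% and 1.01% under αMARCO. The ligand thus stood well under its receptor in every library. Fibroblasts and endothelium are known sources of CSF1. The 10 markers of these cells summed to 396 and 376 CPM in WT control and 229 and 220 CPM in WT αMARCO. With αMARCO in WT, 5 of the 10 were called lower, where 11.8% of all tested genes were. In Unc93b1 3d/3d the 10 markers summed to 313 and 255 CPM in control and to 274 and 167 CPM under αMARCO. Pecam1, an endothelial gene that myeloid cells also express, made up much of the WT sums, at 203 and 199 CPM in WT control and 107 and 107 CPM in WT αMARCO, against 28.9 and 24.1 CPM in Unc93b1 3d/3d control. Without it, in sums made after seeing the data, WT control had 193 and 177 CPM and WT αMARCO 123 and 113 CPM. Unc93b1 3d/3d control then had 284 and 231 CPM, above WT control, and Unc93b1 3d/3d αMARCO 247 and 140 CPM. When control TAMs of the genotypes were compared, Pecam1 was called higher in WT (log2 fold change 2.91, edgeR adjusted p = 1.73e-06), and Col3a1 (-0.67), Pdgfra (-0.95) and Pdgfrb (-1.65) were called lower. Col3a1, a fibrillar collagen gene, had 71.1 and 63.8 CPM in WT control and 21.7 and 13.5 CPM in WT αMARCO (log2 fold change -1.94, adjusted p = 0.00294), and in Unc93b1 3d/3d αMARCO it had 108 and 46.4 CPM. Col1a1 had 0.21 to 5.46 CPM over all libraries. The part of these markers in the Csf1 values was not tested.

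The promoter of Csf1 is shown because Csf1 was the member with the lowest adjusted p, and that of Csf2rb2 because it was the member called between the control genotypes. Both are the 250 bases before the RefSeq start, 5′ to 3′ on the gene's strand, GRCm38.p6, at chr3:107760470-107760719 and chr15:78305722-78305971, both on the minus strand. Capitals mark matches, on either strand, to GGGAA and CC with 3 bases between them (κB), GGGCGG (GC box), GAGGAA (PU.1 core) or TGANTCA (AP-1).
Csf1: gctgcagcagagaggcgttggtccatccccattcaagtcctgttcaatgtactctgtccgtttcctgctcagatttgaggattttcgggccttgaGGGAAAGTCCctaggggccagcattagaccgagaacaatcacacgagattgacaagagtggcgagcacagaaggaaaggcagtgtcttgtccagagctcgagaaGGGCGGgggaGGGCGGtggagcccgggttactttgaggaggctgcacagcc
Csf2rb2: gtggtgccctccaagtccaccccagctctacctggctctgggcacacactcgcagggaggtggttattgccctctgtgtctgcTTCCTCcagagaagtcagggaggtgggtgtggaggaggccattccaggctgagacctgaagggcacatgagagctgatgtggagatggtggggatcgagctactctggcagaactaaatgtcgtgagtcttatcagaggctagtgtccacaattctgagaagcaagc
The Csf1 window held 1 κB match, starting 155 bases before the start, and 2 GC boxes, which do not overlap each other or the κB match. The Csf2rb2 window held 1 PU.1 core, read on the other strand. Of 27025 RefSeq promoters of the same length, 4.81% held the κB letters, 32.9% the GC box, 23.1% the PU.1 core and 6.87% the AP-1 letters. The AP-1 letters are not in either window.

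Il34 (ENSMUSG00000031750, chr8:110741829-110805924, minus strand) encodes the other CSF1R ligand. Its level was 3.69 and 3.21 CPM in WT control, 2.08 and 1.96 CPM in WT αMARCO, 3.08 and 2.59 CPM in Unc93b1 3d/3d control and 3.02 and 3.01 CPM in Unc93b1 3d/3d αMARCO. The WT αMARCO libraries were the lowest of the 8. Its log2 fold change for αMARCO was -0.77 in WT (SE 0.30, edgeR adjusted p = 0.069) and 0.11 in Unc93b1 3d/3d (SE 0.42, adjusted p = 0.952), and neither was called. Exons of Gm15894 and Gm15895, on the opposite strand, overlap Il34, and the strand setting of the counting is not given in the sources used here. Reads of these genes and of Il34 therefore cannot be told apart.

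Csf2 (ENSMUSG00000018916, chr11:54247271-54249667, minus strand) encodes GM-CSF, a product of activated lymphocytes and of stromal cells. It had 16 and 8 counts in WT control and none in the Unc93b1 3d/3d control libraries (0 and 0 counts). Under αMARCO the WT libraries held 0 and 5 counts, and those of Unc93b1 3d/3d mice 0 and 2. The WT control libraries held most of its counts. It did not pass the filter on low counts, and no test was made. The WT control mean of 0.643 CPM was at least 3.78-fold higher than in Unc93b1 3d/3d control, taking 3 counts per library as the floor there. An exon of Gm12223 overlaps it on the opposite strand. T cell markers, at 110 and 124 summed CPM in WT control against 11.4 and 18.3 in WT αMARCO, 27.7 and 13.2 in Unc93b1 3d/3d control and 8.97 and 9.16 in Unc93b1 3d/3d αMARCO, were likewise highest in WT control. NK cell markers summed to 192 and 171 CPM in WT control and to 45.7 to 76.2 CPM in the other libraries. The part of these markers in the Csf2 counts was not tested.

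Csf1r (ENSMUSG00000024621, chr18:61105572-61132149, plus strand) varied least among the members, 1.26-fold from the lowest to the highest library. It had 1029 and 903 CPM in WT control, 1031 and 1094 CPM in WT αMARCO, 952 and 1101 CPM in Unc93b1 3d/3d control and 1113 and 1134 CPM in Unc93b1 3d/3d αMARCO. In each genotype the αMARCO libraries lay above the control libraries. The log2 fold changes for αMARCO were 0.14 in WT (SE 0.10, edgeR adjusted p = 0.300) and 0.14 in Unc93b1 3d/3d (SE 0.26, adjusted p = 0.898), and the difference between them was -0.01 (SE 0.24). An exon of Hmgxb3 overlaps Csf1r on the opposite strand.

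Scaled to gene length, Csf2ra had the highest level, 384 ± 63.0 CPM per kb (SD over 8 libraries), followed by Csf1r at 214 ± 16.8, Csf3r at 73.2 ± 17.8, Csf2rb at 48.9 ± 6.72 and Csf2rb2 at 28.0 ± 4.85 CPM per kb. Csf2ra was above Csf1r in 8 of 8 libraries and their ranges did not overlap. Csf3r was above Csf2rb in 8 of 8 libraries, although their ranges overlapped. Far lower came Csf1 at 3.61 ± 1.34, Flt3 at 1.87 ± 2.65, Il34 at 1.44 ± 0.299, Kit at 0.494 ± 0.550 and Csf2 at 0.253 ± 0.377 CPM per kb. Among these 5 genes, each overlapped its neighbor in the order. Receptors for CSF1, GM-CSF and G-CSF were thus above every ligand in every library.

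**Figure D2:**
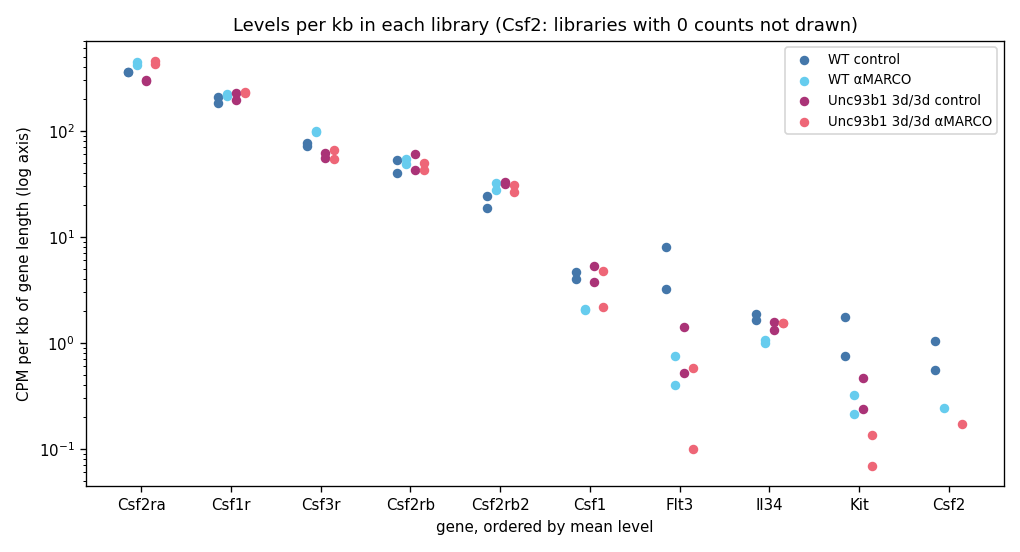
CPM per kb of gene length (log axis) in each library, genes ordered by their mean over 8 libraries and points colored by group. The 5 receptor genes at the left lie from 18.8 to 458 CPM per kb, and the other 5 genes lie at 7.97 or less.

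Csf2ra (ENSMUSG00000059326, chr19:61224402-61228418, minus strand), the α chain that binds GM-CSF, had 666 and 668 CPM in WT control and 780 and 824 CPM in WT αMARCO. It had 544 and 562 CPM in Unc93b1 3d/3d control and 784 and 846 CPM in Unc93b1 3d/3d αMARCO. The αMARCO libraries were above the control libraries in both genotypes, and the Unc93b1 3d/3d control libraries were the lowest of all. The log2 fold change for αMARCO was 0.27 in WT (SE 0.09, edgeR adjusted p = 0.0367), under the fold threshold. The Unc93b1 3d/3d value was 0.57 (SE 0.25, edgeR adjusted p = 0.823). It was 0.62 and 0.53 without αMARCO replicate 1 or 2, fits that leave 1 library in that group. The difference between genotypes in this effect was -0.31 (SE 0.21, adjusted p = 0.447). Between the control genotypes its log2 fold change was 0.25, WT over Unc93b1 3d/3d (SE 0.09, adjusted p = 0.0921).

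Csf2rb (ENSMUSG00000071713, chr15:78325798-78353847, plus strand) and Csf2rb2 (ENSMUSG00000071714, chr15:78282507-78305721, minus strand) are neighboring mouse paralogs. The former encodes the β chain shared by the GM-CSF, IL-3 and IL-5 receptors and the latter a β chain of the IL-3 receptor. Their GENCODE M21 coding sequences, of 2688 and 2634 bases, were identical at 2503 of 2628 aligned bases (95.2%). Of all 50-base coding windows, 26.2% of those of Csf2rb and 26.6% of those of Csf2rb2 occur whole in the other gene, and at 150 bases 6.50% and 6.64% do. A pair of stretches is shown, 5′ to 3′ on the coding strand, because they set where a read can and cannot separate the genes. The longest identical run, of 242 bases, lies in exon 15 of 15 of Csf2rb (chr15:78348577-78348818) and in exon 14 of 14 of Csf2rb2 (chr15:78284630-78284871).
Csf2rb and Csf2rb2: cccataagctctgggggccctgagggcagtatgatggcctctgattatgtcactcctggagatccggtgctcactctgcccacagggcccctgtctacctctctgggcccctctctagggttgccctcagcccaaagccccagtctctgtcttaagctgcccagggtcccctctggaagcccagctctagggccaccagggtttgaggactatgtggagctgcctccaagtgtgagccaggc
The most different window of 120 bases has 22 differing bases, in capitals, and spans exons 5 and 6 of Csf2rb and exons 4 and 5 of Csf2rb2.
Csf2rb: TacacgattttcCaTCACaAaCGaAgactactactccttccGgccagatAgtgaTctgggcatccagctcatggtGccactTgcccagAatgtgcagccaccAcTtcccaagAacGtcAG
Csf2rb2: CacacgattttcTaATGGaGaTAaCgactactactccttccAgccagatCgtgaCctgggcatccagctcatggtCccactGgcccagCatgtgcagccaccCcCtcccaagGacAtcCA
A read that falls whole in a shared stretch such as the first cannot be assigned to either gene by its letters, so the counts of the pair are uncertain to that extent.

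Csf2rb2 had 115 and 89.0 CPM in WT control, 130 and 151 CPM in WT αMARCO, 158 and 148 CPM in Unc93b1 3d/3d control and 147 and 125 CPM in Unc93b1 3d/3d αMARCO. Both WT control libraries were below every other library. In control TAMs it was lower in WT than in Unc93b1 3d/3d, at 102 ± 18.6 against 153 ± 6.59 CPM (SD, n = 2 each), a log2 fold change of -0.60 (SE 0.13, edgeR adjusted p = 0.0121), where 6.4% of tested genes were called lower in WT. Without Unc93b1 3d/3d control replicate 2 the log2 fold change was -0.65. The call was lost with all 8 libraries in a common model (edgeR adjusted p = 0.163). It was also lost without WT control replicate 2 (log2 fold change -0.42) and without Unc93b1 3d/3d control replicate 1. The log2 fold change for αMARCO in WT was 0.46 (SE 0.13, adjusted p = 0.0249), under the fold threshold. It was 0.65 without WT control replicate 1 and 0.56 without WT αMARCO replicate 1. Without another library it was as low as 0.28. These fits leave 1 library in a group. The log2 fold change for αMARCO in Unc93b1 3d/3d was -0.16 (SE 0.21, adjusted p = 0.861).

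Csf2rb had 376 and 284 CPM in WT control, 351 and 385 CPM in WT αMARCO, 428 and 307 CPM in Unc93b1 3d/3d control and 355 and 305 CPM in Unc93b1 3d/3d αMARCO. The groups overlapped in each of the 4 comparisons, and none was called. Its log2 fold change between the control genotypes was -0.17 (SE 0.20, edgeR adjusted p = 0.597). With the counts of both paralogs summed it was -0.29 (adjusted p = 0.279), so the difference called for Csf2rb2 was not called for the pair. Csf2rb2 made up 23.5% and 23.9% of the summed counts in WT control, whereas Unc93b1 3d/3d control had 26.9% and 32.6%. It made up 27.0% and 28.2% in WT αMARCO, and 29.2% and 29.0% under αMARCO in Unc93b1 3d/3d. The WT control libraries had the lowest shares of the 8.

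**Figure D3:**
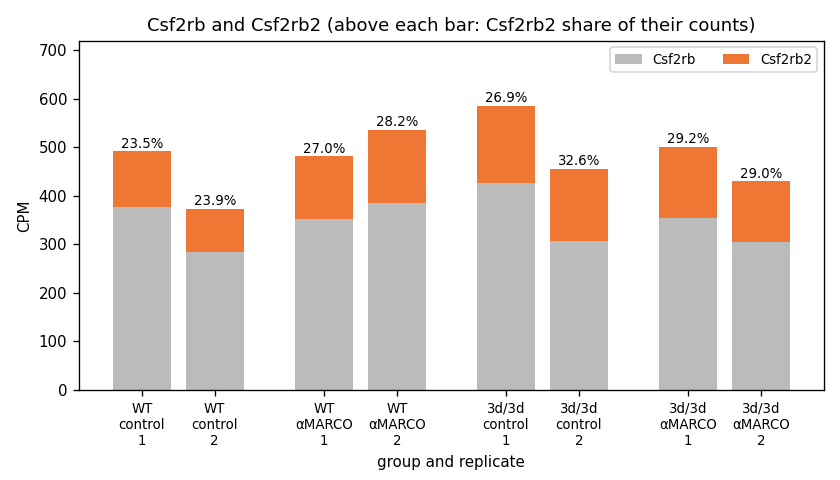
CPM (vertical axis) of Csf2rb and, stacked above it, Csf2rb2 in each library, with the share of Csf2rb2 in the summed counts printed over each bar. The share is lowest in the WT control libraries, at 23.5% and 23.9%, and highest in Unc93b1 3d/3d control replicate 2, at 32.6%.

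Csf3r (ENSMUSG00000028859, chr4:126024550-126044440, plus strand), the G-CSF receptor, had 262 and 279 CPM in WT control and 355 and 360 CPM in WT αMARCO. It had 224 and 201 CPM in Unc93b1 3d/3d control and 240 and 194 CPM in Unc93b1 3d/3d αMARCO. The WT libraries were above the Unc93b1 3d/3d libraries under either treatment, and the WT αMARCO libraries were the highest. With αMARCO in WT, the log2 fold change was 0.40 (SE 0.08, edgeR adjusted p = 0.00438), under the fold threshold, and in Unc93b1 3d/3d it was 0.05 (SE 0.23, adjusted p = 0.963). The difference between these effects was 0.35 (SE 0.23, edgeR adjusted p = 0.431). With 1 library left out it ran from 0.18 to 0.53, the highest without Unc93b1 3d/3d αMARCO replicate 1. These fits leave 1 library in a group. WT over Unc93b1 3d/3d, the log2 fold change was 0.33 in control (SE 0.10, adjusted p = 0.0473), under the fold threshold. Under αMARCO it was 0.71 (SE 0.21, edgeR adjusted p = 0.642). It was 0.89 without Unc93b1 3d/3d αMARCO replicate 1 and 0.55 without replicate 2, fits that leave 1 library in that group. The 12 neutrophil markers summed to 97.3 and 56.3 CPM in WT control, 33.9 and 37.6 CPM in WT αMARCO, 55.6 and 37.5 CPM in Unc93b1 3d/3d control and 30.5 and 29.7 CPM in Unc93b1 3d/3d αMARCO. These sums were highest in WT control and Csf3r in WT αMARCO. With αMARCO in WT, 4 of the 8 tested markers were called lower, where 11.8% of all tested genes were. Among the neutrophil granule genes, Camp and Ngp had at most 0.13 and 0.28 CPM, Ltf had 4.38 and 5.37 CPM in WT control and less in the other libraries, and Mmp8 had up to 36.1 CPM and was detected in every library. S100a9, an abundant neutrophil transcript that monocytes also express, had 0.90 to 24.4 CPM. The part of these markers in the Csf3r values was not tested.

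Flt3 (ENSMUSG00000042817, chr5:147330741-147400489, minus strand), the receptor of FLT3 ligand, varied most among the members with counts in every library, 80.0-fold from the lowest to the highest library. It had 49.2 and 19.8 CPM in WT control, 2.46 and 4.70 CPM in WT αMARCO, 8.79 and 3.19 CPM in Unc93b1 3d/3d control and 3.55 and 0.62 CPM in Unc93b1 3d/3d αMARCO. The WT control libraries were above all others and far from each other. In WT the log2 fold change for αMARCO was -3.25 (SE 0.73, edgeR adjusted p = 0.0647), which did not pass the threshold, although it did with DESeq2 (adjusted p = 0.000161). It was -2.46 without WT control replicate 1 and -3.76 without replicate 2, fits that leave 1 library in that group. In control TAMs it was 2.54, WT over Unc93b1 3d/3d (SE 0.83, edgeR adjusted p = 0.167, DESeq2 adjusted p = 0.0374). The log2 fold change for αMARCO in Unc93b1 3d/3d was -1.47 (SE 0.86, edgeR adjusted p = 0.823), -3.25 without αMARCO replicate 1 and -0.58 without αMARCO replicate 2. The difference between the αMARCO effects was -1.85 (SE 1.07, adjusted p = 0.388). The 12 markers of conventional dendritic cells, which depend on FLT3, had summed CPM with group means in the same order. They summed to 1342 and 919 CPM in WT control, 425 and 386 CPM in Unc93b1 3d/3d control, 360 and 389 CPM in WT αMARCO and 333 and 223 CPM in Unc93b1 3d/3d αMARCO. Of these 12, 7 were called lower with αMARCO in WT, where 11.8% of all tested genes were. Between the control genotypes 3 were called higher in WT, where 6.58% of all tested genes were. Wdfy4 alone had 251 and 258 CPM in WT control and 114 to 221 CPM in the other libraries. Xcr1 departed from the order, with 5.95 and 7.80 CPM in Unc93b1 3d/3d αMARCO against 3.58 and 4.87 CPM in Unc93b1 3d/3d control. Ccr7, a marker of migratory dendritic cells, had 214 and 119 CPM in WT control and 10.5 and 16.8 CPM in WT αMARCO (log2 fold change -3.60, edgeR adjusted p = 0.0291), and Clec9a, of the cross-presenting subset, had 0.63 to 2.16 CPM over all libraries. The T cell, NK cell and neutrophil sums also had their group means in the order of those of Flt3. The part of any of these markers in the Flt3 values was not tested.

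Kit (ENSMUSG00000005672, chr5:75574916-75656722, plus strand) had 15.6 and 6.76 CPM in WT control, 1.88 and 2.86 CPM in WT αMARCO, 4.20 and 2.13 CPM in Unc93b1 3d/3d control and 1.20 and 0.62 CPM in Unc93b1 3d/3d αMARCO. The WT control libraries were the highest, and the αMARCO libraries were below the control libraries in each genotype. In WT, Kit fell with αMARCO by a log2 fold change of -2.22 (SE 0.44, edgeR adjusted p = 0.0107), where 11.8% of tested genes were called lower. The call was lost without WT αMARCO replicate 1 (adjusted p = 0.114) or replicate 2 (adjusted p = 0.066) and with all 8 libraries in a common model (adjusted p = 0.089). The value for Unc93b1 3d/3d was -1.75 (SE 0.62, edgeR adjusted p = 0.823). With 1 library left out it ran from -2.33, without αMARCO replicate 1, to -1.20, fits that leave 1 library in a group. The difference between the effects was -0.50 (SE 0.78, adjusted p = 0.739). In control TAMs the log2 fold change was 1.81, WT over Unc93b1 3d/3d (SE 0.49, edgeR adjusted p = 0.0514), just outside the threshold, and DESeq2 called it (adjusted p = 0.000846). The 10 mast cell and basophil markers summed to 33.7 and 17.7 CPM in WT control, 26.0 and 26.3 CPM in WT αMARCO, 39.3 and 15.1 CPM in Unc93b1 3d/3d control and 19.0 and 15.5 CPM in Unc93b1 3d/3d αMARCO. Most of that sum was Hdc, which encodes histidine decarboxylase, at 9.48 to 32.3 CPM. The defining genes Fcer1a, Ms4a2 and Cpa3 had at most 0.19, 0.31 and 1.26 CPM. No mast cell marker was called with αMARCO in WT, among the 4 tested. Between the control genotypes, 1 of 5 tested was called, where 6.4% of all tested genes were called lower in WT. It was Cpa3, lower in WT (log2 fold change -2.65, edgeR adjusted p = 0.0254), at 0.21 and 0.17 CPM against 1.26 and 1.17 CPM in Unc93b1 3d/3d control. Markers of many other cell types were called lower with αMARCO in WT. They were 7 of 12 dendritic cell, 11 of 11 T cell, 5 of 9 NK cell and 4 of 8 neutrophil markers. So were 5 of 10 fibroblast and endothelial, 2 of 4 tumor epithelial and 1 of 3 B cell markers, but none of 4 plasmacytoid dendritic cell markers. The dendritic cell, T cell, NK cell and neutrophil sums all had their group means in the order of those of Kit. The part of these markers in the Kit values was not tested.

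**Figure D4:**
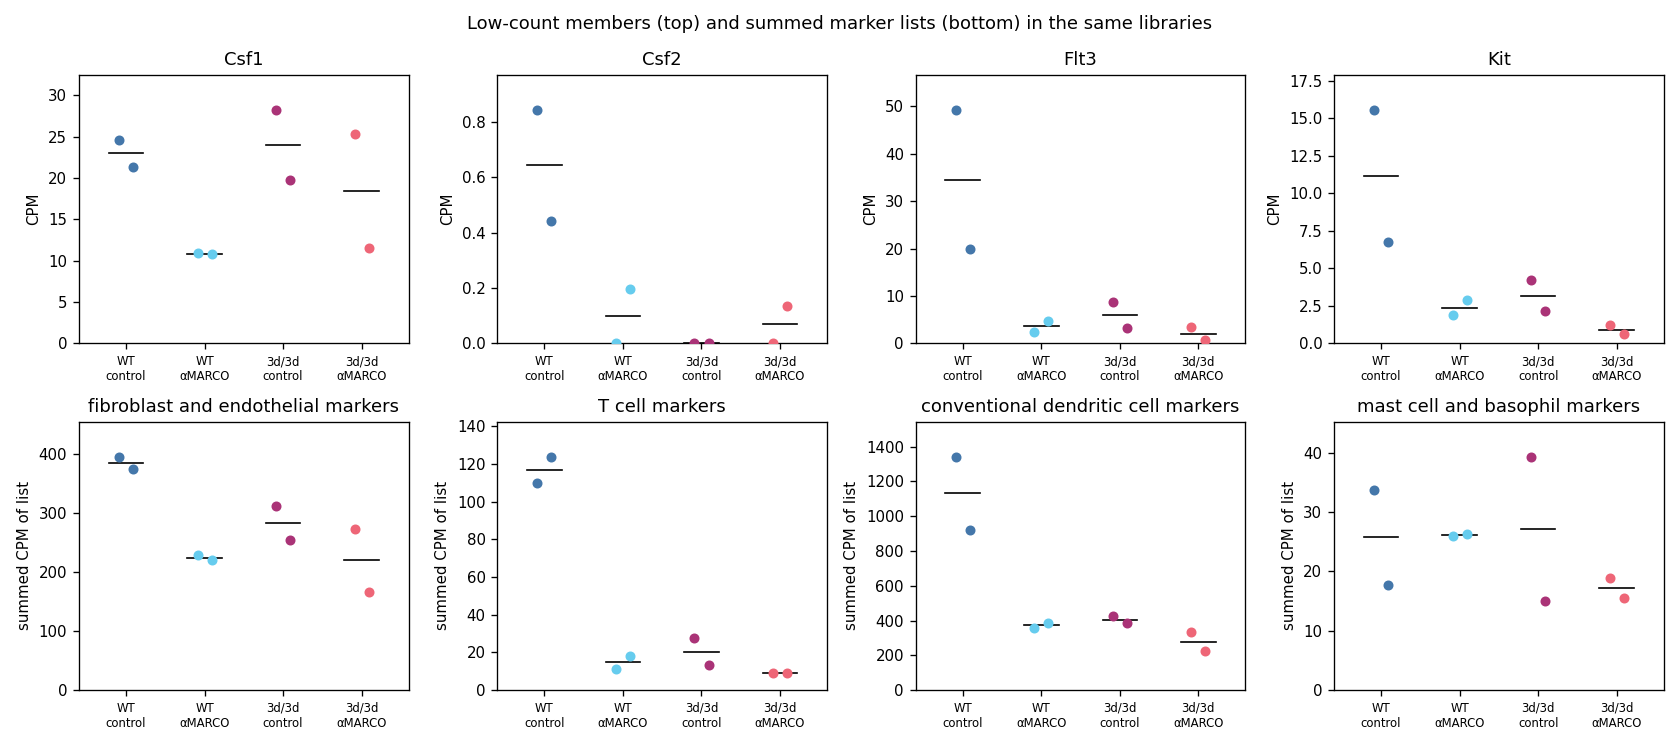
CPM of Csf1, Csf2, Flt3 and Kit (upper row) above the summed CPM of the marker list printed below each (lower row), 2 points per group with a bar at the mean, axes from 0. Flt3 and the dendritic cell markers, and Csf2 and the T cell markers, are highest in the WT control libraries, while the mast cell markers are not highest where Kit is.

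Over all comparisons, groups did not overlap for 8 of the 9 tested members for αMARCO in WT, 4 above and 4 below control, where 70.8% of all tested genes did not overlap. Between the control genotypes this held for 6 of 9, beside 63.1% of all tested genes. For αMARCO in Unc93b1 3d/3d it held for 4 of 9, beside 39.0%, and between the genotypes under αMARCO for 5 of 9, beside 43.7%. The test of the difference between the αMARCO effects in WT and Unc93b1 3d/3d called no member and 0.0% of 16620 genes with edgeR, at an unadjusted p of at most 0.05 it passed 2549 genes and 1 of 9 members, Csf2rb2, and DESeq2 called 200 genes. The comparisons share groups, so the values of 1 group enter more than 1 of them.

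**Figure D5:**
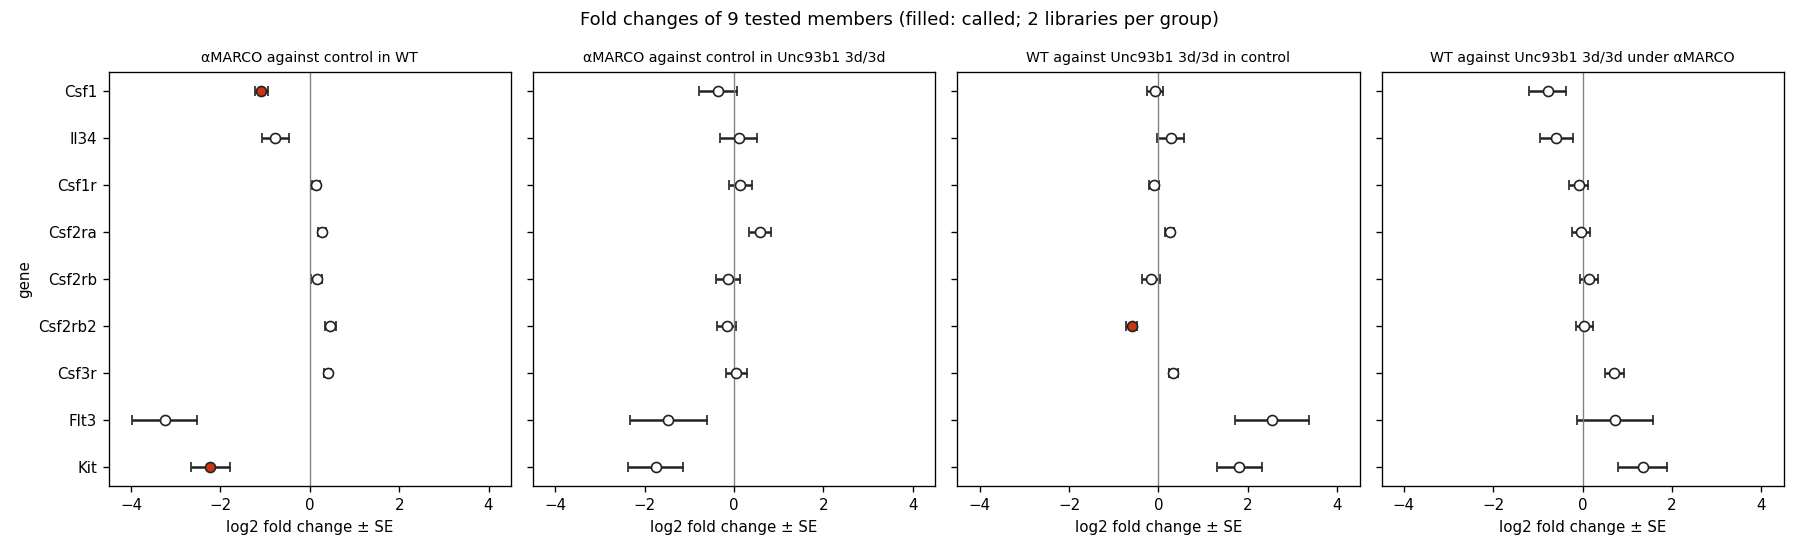
Log2 fold change with its SE (horizontal axes) of the 9 tested members in the 4 comparisons, with called genes filled. The filled points are Csf1 at -1.08 and Kit at -2.22 for αMARCO in WT and Csf2rb2 at -0.60 between the control genotypes, and Flt3 has the widest bars.

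Of 14 other ligands and receptors of the network, 13 stood in the tables, without Il3. Flt3l, the FLT3 ligand gene, had 9.74 to 13.9 CPM, and Kitl, which encodes stem cell factor, had 4.03 to 11.5 CPM. Csf3, Il5 and Il5ra had at most 0.61, 0.20 and 0.20 CPM. For αMARCO in WT, 1 of the 8 tested genes was called higher and 1 lower, with a list median log2 fold change of -0.07, where 20.7% of all tested genes were called. Il4ra, the α chain of the IL-4 and IL-13 receptors, had 576 and 459 CPM in WT control and 796 and 708 CPM in WT αMARCO (log2 fold change 0.54, edgeR adjusted p = 0.00804). Sdc1, which encodes the proteoglycan syndecan-1, a further binding partner of IL-34, had 79.2 and 54.6 CPM in WT control and 28.9 and 27.1 CPM in WT αMARCO (-1.26, adjusted p = 0.00261). Between the control genotypes, 1 of 9 was higher and 1 lower in WT (median -0.19), where 13% of all tested genes were called. Il4ra had 1115 and 1120 CPM in Unc93b1 3d/3d control, above its WT control levels (-1.13, WT over Unc93b1 3d/3d, adjusted p = 0.000535). Il3ra, the α chain of the IL-3 receptor, had 62.6 and 65.5 CPM in WT and 43.4 and 44.9 CPM in Unc93b1 3d/3d control (0.52, adjusted p = 0.00755).

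Of 28 genes of the signaling path below CSF1R, 8 were called higher and 3 lower in WT control than in Unc93b1 3d/3d control, beside 6.58% and 6.4% of all tested genes called higher and lower. Csf1r itself was not called. The median of the list was 0.21 on the log2 scale, beside -0.0036 over all tested genes. Among the higher was Ptpn6, which encodes the phosphatase SHP-1, with 687 and 799 CPM in WT against 394 and 438 CPM in Unc93b1 3d/3d (log2 fold change 0.82, adjusted p = 0.00188). Lyn, which encodes a kinase of the SRC family, differed by 0.50 (adjusted p = 0.0102). Dusp6, which encodes a phosphatase of ERK, was among the lower, with 272 and 215 CPM in WT against 360 and 372 CPM in Unc93b1 3d/3d control (-0.60, adjusted p = 0.0093). For αMARCO in WT, 1 of 28 was called higher and 2 lower (median -0.13, beside -0.01 over all tested genes), where 8.91% and 11.8% of all tested genes were. These were Cbl, a ubiquitin ligase gene that acts in receptor turnover (0.55, adjusted p = 0.00105), and, lower, the adaptor gene Sla (-0.51, adjusted p = 0.00123) and Fyn (-0.83, adjusted p = 0.000117). Fyn is also expressed in T cells, whose markers fell in the same comparison in 11 of 11 tested genes. The part of these cells in the Fyn values was not tested.

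In the JAK2-STAT5 branch, used by GM-CSF, 3 of 15 genes were called higher and 1 lower in WT control than in Unc93b1 3d/3d control (median 0.27), beside 6.58% and 6.4% of all tested genes. Socs3, a feedback inhibitor, had 839 and 869 CPM in WT and 471 and 458 CPM in Unc93b1 3d/3d (log2 fold change 0.86, edgeR adjusted p = 0.000678). Socs1, a related inhibitor, differed by 0.67 (adjusted p = 0.00314), and Ccnd2, which encodes cyclin D2, by 0.58 (adjusted p = 0.00566). Bcl2l1, which encodes the survival factor BCL-xL, was lower in WT (-0.64, adjusted p = 0.00259). For αMARCO in WT, none of 15 was called higher (median -0.16) and 1, Ccnd2, was lower (log2 fold change -0.54, adjusted p = 0.000977), in a comparison where 20.7% of all tested genes were called.

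Of 15 genes known to be induced by GM-CSF in macrophages or dendritic cells, 4 were called higher and 1 lower in WT control than in Unc93b1 3d/3d control, and 1 higher and 6 lower with αMARCO in WT. Over all tested genes, 6.58% were higher and 6.4% lower between the control genotypes, and 8.91% higher and 11.8% lower with αMARCO in WT. The list medians were 1.09 and -0.61 on the log2 scale, beside -0.0036 and -0.01 over all tested genes. The summed CPM of the list overlapped between the control genotypes, at 2328 and 1829 in WT and 1921 and 1865 in Unc93b1 3d/3d. Ccl6, a chemokine gene, was the gene called lower there (log2 fold change -0.87, edgeR adjusted p = 0.00687). It had 273 and 222 CPM in WT control and 387 and 504 CPM in Unc93b1 3d/3d control. Pparg, a nuclear receptor gene of alveolar macrophages, had 82.3 and 102 CPM in WT control, 27.1 and 29.4 CPM in Unc93b1 3d/3d control and 65.0 and 64.4 CPM in WT αMARCO, a log2 fold change of 1.69 between the control genotypes (adjusted p = 6.74e-05) and of -0.51 for αMARCO in WT (adjusted p = 0.00569). Batf3, a dendritic cell transcription factor gene, had 57.8 and 65.1 CPM in WT control, 11.9 and 13.6 CPM in Unc93b1 3d/3d control and 38.6 and 30.7 CPM in WT αMARCO (2.25, adjusted p = 1.14e-05, and -0.83, adjusted p = 0.00148). Retnla, a gene of alternatively activated macrophages, went the other way, from 6.12 and 5.65 CPM in WT control to 80.1 and 52.5 CPM in WT αMARCO (3.49, adjusted p = 0.000583). Several of these 15 genes, among them Batf3, Zbtb46 and Ccl22, are expressed in dendritic cells, and Zbtb46 and Ccl22 are themselves in the list of 12 dendritic cell markers. Without these 2 genes, in sums made after seeing the data, the dendritic cell markers came to 1130 and 825 CPM in WT control, 396 and 367 CPM in Unc93b1 3d/3d control and 352 and 375 CPM in WT αMARCO. The part of those cells was not tested. In Unc93b1 3d/3d, 0 genes of these lists were called with αMARCO, as 0.0% of all tested genes were.

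Over the 8 libraries, the genes most like Csf1r in log2 CPM (plus 1), among 10477 with a mean of at least 5 CPM, were Tceanc, Rnf170 and Trub2, with Pearson's r of 0.96, 0.95 and 0.94. Those most like Csf1 were Sparc (0.98), Ltbp1 (0.97) and Nptxr (0.97). Csf3r was closest to Nxf1 (0.98), Ell2 (0.97) and Crtc2 (0.97), and Flt3 to Strip2, Cacnb3 and Adcy6, each at 0.99. Sparc had 10.9 to 35.3 CPM, and Cacnb3, which is also in the dendritic cell list, 4.86 to 138 CPM. These coefficients describe 8 libraries in 4 groups that share their normalization, and the closest of 10477 genes are high by selection.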

How the data were processed

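Poly-A RNA of TAMs was sequenced on an Illumina NovaSeq. The authors used fastp for cleaning, HISAT2 2.0.5 for alignment to GRCm38 and featureCounts 1.5.0 for counting, per the methods and the submitters' processing notes. The authors deposited 3 tables, each of 2 groups. Their raw counts carry no normalization and were the values tested here. The deposited normalized signal is the count over a size factor set within a table, given per library and as the authors' group mean. The deposited FPKM, which the methods call TPM, scale counts by gene length. The deposited log2 fold changes and p-values, adjusted ones included, are the authors' own DESeq2 1.40.2 results and were not used.

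The tables were joined by gene identifier. Of 95230 counts present in more than 1 table, 0 differed, and genes absent from 1 table were set to 0 there (at most 1 count where it could be checked). Each comparison of 4 libraries was fitted in R 4.3.3 with edgeR 4.0.16 (TMM, filterByExpr, robust quasi-likelihood test, Benjamini-Hochberg adjustment over all tested genes) and the difference of αMARCO effects over 8 libraries. Calls needed an adjusted p no higher than 0.05 and a log2 fold change of 0.5 or more in size. CPM used TMM factors over 8 libraries, and CPM per kb the tables' gene length. The alternatives were DESeq2 1.42.0, its size factors, no filter, 10 counts in every library, all 8 libraries in a common model, a replicate block, summed paralogs, other fold thresholds and each library left out. The steps were tested on simulated data. With 2 libraries a group, p-values measure the spread between libraries, which may be technical for αMARCO, where separate animals are not stated.

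All 10 members are named, with at most 4 called genes per other list and comparison, those of highest mean CPM, and markers at or near 0. The members and the 16 other gene lists, written by hand, were chosen with earlier results of these data known. Positions are the tables' own. They are identical with GENCODE M21 for 7 of 10 members, not for Csf1r, Csf2ra and Csf2rb. Coding sequences came from GENCODE M21 and promoters from RefSeq, which were matched by symbol for 7 of 10 members.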

Additional observations from a re-analysis of the deposited data

Results flagged for a closer look

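Csf2rb2 had αMARCO libraries all above control in WT and all below control in Unc93b1 3d/3d (130 and 151 CPM against 115 and 89.0, and 147 and 125 CPM against 158 and 148), which singled it out. The difference between the log2 fold changes was 0.62 (SE 0.25). It did not pass the test of the difference (edgeR adjusted p = 0.318, unadjusted p = 0.037). With 1 library left out, which leaves 1 library in a group, it ran from 0.44 to 0.81, and was 0.76 without Unc93b1 3d/3d αMARCO replicate 1.

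Il34 was singled out because WT lay above Unc93b1 3d/3d in both control libraries and below it in both αMARCO libraries, at 1.96 to 3.69 CPM. The difference between these genotype effects, the αMARCO value less the control value on the log2 scale, was -0.88 (SE 0.44, edgeR adjusted p = 0.346). With 2 libraries in a group, no check for an outlying library within a group was possible.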

How the results depend on the processing

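The 45 fitted differences of members were each refitted under 9 to 14 alternatives. Of the refitted values, 423 kept their direction and side of the threshold, 24 passed it where the reported fit did not, 7 lost a call and 22 turned direction, the last all in differences that were not called. The cause was not tested. For the difference of αMARCO effects in Csf1r, reported as -0.01, the value was 0.0238 with DESeq2, 0.0251 with DESeq2's size factors, 0.00819 without a filter and 0.0662 with 10 counts in every library, and -0.12 to 0.10 with a library left out. Leaving out a library also turned the following. Between the control genotypes, Csf1 ran from -0.32 to 0.21 and Csf2rb from -0.40 to 0.0915. Between the genotypes under αMARCO, Csf2ra ran from -0.0705 to 0.00408, Csf2rb2 from -0.0879 to 0.18 and Flt3 from -0.00524 to 2.55. For αMARCO in WT, Csf2rb ran from -0.0352 to 0.37. For αMARCO in Unc93b1 3d/3d, Csf1 ran from -1.04 to 0.11, Csf2rb from -0.36 to 0.12, Csf3r from -0.12 to 0.20 and Il34 from -0.0125 to 0.24. For the difference of αMARCO effects, Kit ran from -1.06 to 0.23.

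The number of all genes called moved by over 1.5 times as follows. The ranges with a library left out are given for each comparison, although between the control genotypes they stayed within 1.5 times. Between the control genotypes, reported as 2025, it was 364 with all 8 libraries in a common model and 951 at a log2 threshold of 1, with 1493 to 2234 when a library was left out. For αMARCO in WT, reported as 3236, it was 164 in the common model, 5487 with no fold threshold and 1366 at a threshold of 1, with 1940 to 3951 when a library was left out. Between the genotypes under αMARCO, reported as 0, it was 195 with DESeq2, 107 without a filter, 108 in the common model and 97 with the replicate block, with 17 to 6366 when a library was left out. For αMARCO in Unc93b1 3d/3d, reported as 0, it was 53 with DESeq2, 174 without a filter, 1 in the common model and 5 with the replicate block, with 1 to 5500 when a library was left out. For the difference of αMARCO effects, reported as 0, it was 200 with DESeq2 and 152 without a filter, with 0 to 6440 when a library was left out. The highest of each of the last 3 ranges came from leaving out Unc93b1 3d/3d αMARCO replicate 1. A fit in which an arm kept 1 library assumes that this library varies like the other groups.

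Deviations of libraries with the same replicate number correlated at 0.0095 between the control genotypes, -0.0010 between the WT groups, 0.11 between the Unc93b1 3d/3d groups and 0.14 between the αMARCO groups, with 2 pairs each, so the numbers were not taken as pairs. With the replicate block 2395 genes were called between the control genotypes and 3086 for αMARCO in WT. Flt3 and Kit, not called between the control genotypes, passed with the block (log2 fold change 2.53 and 1.76). Members at a few counts, above all Csf2, are limited by depth.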

Other observations

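The marker lists not described above had these values, beside 6.58% of all tested genes called higher and 6.4% lower in WT control than in Unc93b1 3d/3d control, and 8.91% higher and 11.8% lower with αMARCO in WT. Of 10 macrophage identity genes, summed to 9253 to 13439 CPM, 2 were called higher and 2 lower in WT control than in Unc93b1 3d/3d control, and 1 higher and 4 lower with αMARCO in WT. The complement genes C1qa, C1qb and C1qc were among the 4 lower (log2 fold change -0.73, -0.59 and -0.71). Of 10 nonclassical monocyte markers, 4 were higher and 1 lower in WT control, and 1 was higher and 4 lower with αMARCO in WT. Spn, which encodes CD43, had 133 and 165 CPM in WT control, 20.5 and 21.1 CPM in Unc93b1 3d/3d control, and 53.1 and 62.2 CPM in WT αMARCO. Of 8 classical monocyte markers, 2 were lower in WT control and 2 higher with αMARCO in WT. They were Ccr2, at 328 and 228 CPM in WT control, 416 and 406 CPM in Unc93b1 3d/3d control and 443 and 452 CPM in WT αMARCO, and F13a1. Of 3 B cell markers tested, Cd79b was higher in WT control (3.89) and lower with αMARCO in WT (-1.24). Among 4 tumor epithelial markers tested, 0 were called between the control genotypes and 2 were lower with αMARCO in WT, while no plasmacytoid dendritic cell marker was called in either comparison. Of 10 NK cell markers, 2 were higher in WT control, and 5 of 9 were lower with αMARCO in WT.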
